A study of Mus musculus with 12 samples.

Results

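Genes of the myelin sheath and its cells, the 9 members Mbp, Mog, Mag, Mobp, Cnp, Cldn11, Mal, Ugt8a and Olig1, were followed through the day in the mouse prefrontal cortex. They were taken as all probe sets annotated to 1 of these genes alone, each probe set kept apart, which gave 24 of the 45037 probe sets on the array that are not controls, 8 of them of Mbp. The genes had been chosen by their log2 values over the 4 time points in these same arrays. Those values are therefore given as a description, and the calls of the tests given further on carry no inference about the members. The animals were C57BL/6J mice, obtained at 10 weeks of age and housed in 12 h of light and 12 h of dark. They had 1 week of acclimatization and 1 more week of entrainment before the tissue was taken. There was no further genotype or treatment, and the sex was not stated in the sources used here. Groups of 3 mice were taken at each of 4 zeitgeber times (ZT, hours after lights on). ZT3 and ZT9 fell in the light phase, while dissections at ZT15 and ZT21 took place in the dark phase under red light. The tissue was the most anterior cortex without the olfactory bulb and subcortical structures, and the RNA of each mouse went on 1 Affymetrix array.

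Myelin is the stack of oligodendrocyte membrane that insulates axons. Its cytoplasmic faces are drawn together by myelin basic protein (Mbp), and its layers are joined by tight junctions of claudin 11 (Cldn11). Galactolipids, made by the enzyme encoded by Ugt8a, form much of its lipid. In the cortex, myelin is made by mature oligodendrocytes, which arise from precursor cells under transcription factors that include Olig1. In bulk tissue, fewer cells of a type and less RNA per cell cannot be told apart.

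The values are log2 intensities, and levels of different probe sets are not comparable with each other. A probe set was tested if it was among the brightest 54.5% of the 45037 by mean log2 intensity, the number left by the detection filter of the study, and 23 of the 24 were. The exception, Mobp 1441308_at, lay between 1.62 and 1.71 on all 12 arrays, while the dimmest tested probe set had a mean of 4.87. Mean intensity per array ran from 344 to 398. It was 344 to 356 at ZT3, 347 to 398 at ZT9, 360 to 392 at ZT15 and 347 to 395 at ZT21. The brightest arrays were ZT9 replicate 1 (398), ZT21 replicate 3 (395), ZT9 replicate 2 (394) and ZT15 replicate 3 (392). The arrays carry control probe sets at the 3′ and 5′ ends of Gapdh, and the gap between them, which widens as RNA degrades, was 0.31 log2 in ZT9 replicate 1, 0.26 in ZT15 replicate 3 and 0.23 in ZT21 replicate 3, against 0.10 to 0.19 on the other 9 arrays. Ttr, the defining transcript of choroid plexus, stood at 14.82 in ZT9 replicate 3 and 14.18 in ZT15 replicate 1 and at 9.22 to 12.40 elsewhere.

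The probe sets of Mbp differed in how far their means lay apart over the day. Probe set 1425264_s_at read 9.20, 9.03 and 9.10 at ZT3, 9.23, 9.15 and 9.11 at ZT9, 9.82, 9.82 and 9.78 at ZT15 and 9.36, 9.47 and 9.38 at ZT21. All 3 mice at ZT15 lay above the other 9, and all 3 at ZT21 lay above all 3 at ZT9. The mean at ZT15 was 9.81 ± 0.02 (SD, n = 3), against 9.11 ± 0.08 at ZT3, a difference of 0.70 (standard error 0.08), or 1.62-fold. The dark time points lay above the light ones by 0.47 (standard error 0.06) on average.

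Mbp 1425263_a_at had the larger difference and the larger spread. Its values were 7.65, 7.28 and 7.17 at ZT3, 8.03, 7.66 and 7.39 at ZT9, 8.17, 8.19 and 8.42 at ZT15 and 7.50, 8.04 and 8.23 at ZT21. All mice at ZT15 lay above all mice at ZT3, while 1 mouse at ZT21 (8.23) lay within the values of ZT15. The difference between ZT15 and ZT3 was 0.89 (standard error 0.21), or 1.86-fold, and the SD within a time point reached 0.37 at ZT21. It did not pass the test over the time points or any of the contrasts.

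The remaining 6 probe sets of Mbp, with mean log2 intensities of 12.65 to 14.33, were nearly level. The brightest, 1433532_a_at, read 14.24, 14.26 and 14.23 at ZT3, 14.35, 14.54 and 14.25 at ZT9, 14.41, 14.28 and 14.46 at ZT15 and 14.16, 14.24 and 14.50 at ZT21. The values of ZT15 lay within those of ZT9 and of ZT21, and just above those of ZT3. Across the 6, the range between the highest and the lowest of the 4 time-point means was 0.08 to 0.22, with a median difference of 0.08 between ZT15 and ZT3. After quantile normalization, which forces all arrays to 1 distribution of values, the difference of 1433532_a_at was -0.05. That of 1425264_s_at was then 0.58, and that of 1425263_a_at stayed within 0.79 to 1.04 under all alternatives tried. The Affymetrix suffixes mark what a probe set can match: _a_at several transcripts of 1 gene, _s_at probes shared by transcripts that may belong to different genes, and _x_at probes that may also match unrelated sequences. Besides the transcripts of classic myelin basic protein, Mbp gives rise to golli transcripts, which start further upstream and are also made in neurons and immune cells, and which transcripts each probe set matches was not examined.

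**Figure D1:**
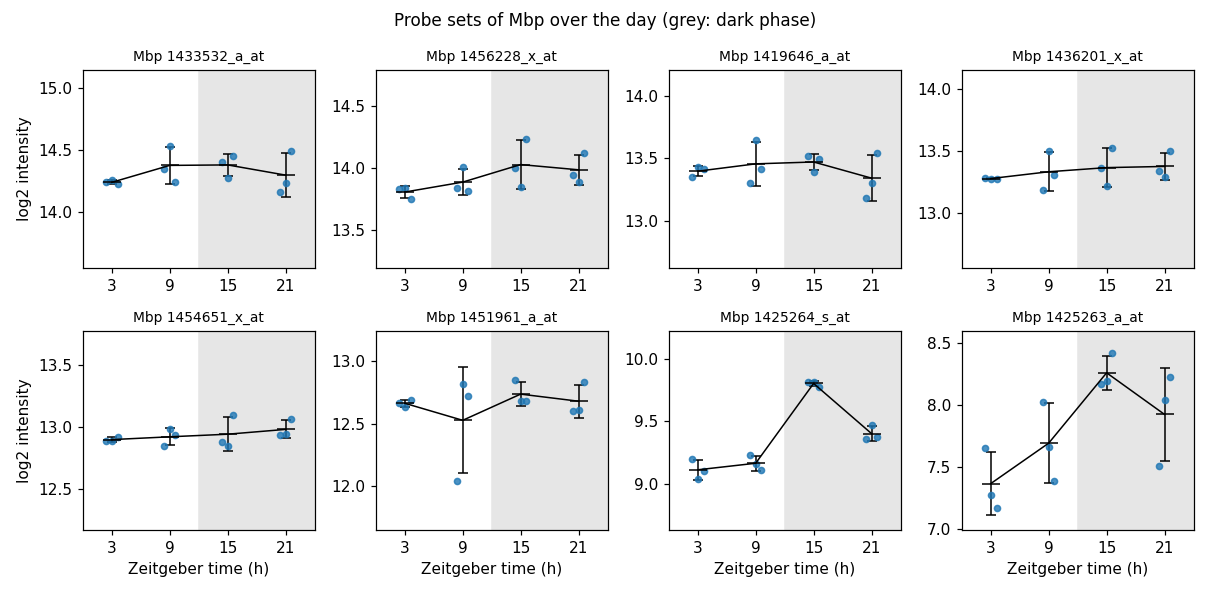
Log2 intensity (vertical axis, the same span in each panel) of the 8 Mbp probe sets against zeitgeber time in hours. Points are single mice, bars the mean ± SD of 3 mice and grey the dark phase. The 2 probe sets at the lower right, 1425264_s_at and 1425263_a_at, are highest at ZT15, by 0.70 and 0.89 over ZT3, and the means of the other 6 span at most 0.22.

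These probe sets of Mbp and the brightest of Mbp and Mobp were also set against the tested probe sets of genes that are not members. The aim was to see which of those transcripts had the most similar pattern over the 12 mice. Probe sets annotated to no gene or to several were left out, as were all members. For 1425264_s_at, a query added after its values were seen, these were Camk1g, a calcium/calmodulin-dependent kinase (r = 0.97, rho = 0.89 over 12 mice, and r = 0.95 without the 2 mice farthest from the median), Trib2, a pseudokinase (r = 0.95, rho = 0.97), Btaf1, Numb and Cdyl2. For 1425263_a_at they were Ptpn1, a tyrosine phosphatase (r = 0.95, rho = 0.90), Wdr3, Arhgap39, Spry2 and Ythdc1. For the brightest Mbp probe set, 1433532_a_at, the first was Rfx7 (r = 0.96, rho = 0.92), followed by Atrx, Gabarapl1, Fth1 and Nptn. For the brightest Mobp probe set, 1433785_at, the list was headed by Ppp6r1 (r = 0.91, rho = 0.74), Ppp1cc, Pde8b, Pcyt1a and Nudt3. None of these 20 genes is among the other oligodendrocyte genes listed further on, which are a small part of the probe sets searched. As the members were left out, the lists do not show how alike the myelin genes are to each other. The correlations share the 12 arrays and their differences in brightness.

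Upstream sequence is shown for the 3 members whose promoter window held a core of SOX binding sites, since myelin genes are known targets of the SOX factors of the oligodendrocyte. The 250 bases before the start site were taken from RefSeq (GRCm38.p6) for the 7 members other than Mbp and Olig1, by the first entry where a gene had several. Capitals mark this core, ACAAAG or its reverse complement CTTTGT.
Mobp, chr9:120149492-120149741 (+ strand): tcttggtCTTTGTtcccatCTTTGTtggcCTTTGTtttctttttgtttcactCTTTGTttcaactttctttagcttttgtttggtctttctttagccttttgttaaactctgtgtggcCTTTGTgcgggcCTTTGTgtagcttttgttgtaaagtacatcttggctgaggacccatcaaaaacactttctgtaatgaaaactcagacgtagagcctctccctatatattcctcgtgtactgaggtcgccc
Mag, chr7:30914864-30915113 (- strand): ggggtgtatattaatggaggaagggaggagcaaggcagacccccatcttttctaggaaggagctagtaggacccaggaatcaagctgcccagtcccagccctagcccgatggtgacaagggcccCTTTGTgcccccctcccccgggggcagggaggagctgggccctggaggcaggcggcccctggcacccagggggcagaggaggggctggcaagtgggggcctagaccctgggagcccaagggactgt
Cnp, chr11:100574689-100574938 (+ strand): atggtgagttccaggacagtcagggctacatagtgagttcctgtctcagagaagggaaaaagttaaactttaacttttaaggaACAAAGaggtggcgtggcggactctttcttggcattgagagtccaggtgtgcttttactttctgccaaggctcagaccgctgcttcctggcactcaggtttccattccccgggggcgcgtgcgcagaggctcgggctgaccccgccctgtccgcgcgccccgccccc
The window of Mobp held the letters 6 times, and it was the 1 window among 27025 to hold them as often. All 6 lay in a repetitive stretch rich in T, so the count is not read as a density of SOX sites. Mag and Cnp held them once each, and 16.5% of all windows of this length held them at least once on either strand. The other SOX core searched, AACAAT, was in 0 of the 7 windows, against 9.65% of all windows. The E-boxes bound by the clock, CACGTG (6.05% of all windows) and CACGTT (3.93%), were in 0 of the 7 as well, the GC box GGGCGG was in 2 (32.9% of all windows) and TATAAA in 0 (13% of all windows). A letter match is a description and not a binding site.

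Mobp, which encodes a small basic protein of compact myelin, was measured by 4 tested probe sets that differed in how they followed the day. Mobp 1436263_at read 8.50, 8.73 and 8.62 at ZT3, 8.58, 9.22 and 8.79 at ZT9, 9.08, 8.99 and 9.19 at ZT15 and 8.46, 8.46 and 8.70 at ZT21. All mice at ZT15 lay above all mice at ZT3 and ZT21, while 1 mouse at ZT9 (9.22) was the highest of all 12. Its difference between ZT15 and ZT3 was 0.47 (standard error 0.15), or 1.39-fold, and stayed between 0.36 and 0.53 under all alternatives. The brightest, 1433785_at, read 12.44, 12.46 and 12.41 at ZT3, 12.09, 12.54 and 12.39 at ZT9, 12.49, 12.56 and 12.59 at ZT15 and 12.19, 12.20 and 12.53 at ZT21, a difference of 0.11 (standard error 0.12) between ZT15 and ZT3. In 1450088_a_at the 3 mice of ZT9, of ZT15 and of ZT21 lay further apart than the means of the time points did. Its values were 10.75, 10.86 and 10.60 at ZT3, 9.76, 10.91 and 10.70 at ZT9, 11.03, 10.99 and 10.28 at ZT15 and 10.17, 10.41 and 10.57 at ZT21, and its means spanned 0.38 (standard error 0.27). The fourth, 1421010_at, lay between 11.66 and 12.74, with both extremes at ZT9, and its means spanned 0.33 (standard error 0.24).

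Cnp encodes a phosphodiesterase that keeps channels of cytoplasm open in the sheath. Its brightest probe set, 1437341_x_at, read 12.40, 12.38 and 12.30 at ZT3, 12.30, 12.71 and 12.56 at ZT9, 12.59, 12.39 and 12.59 at ZT15 and 12.53, 12.47 and 12.76 at ZT21. The 3 probe sets of Cnp differed between ZT15 and ZT3 by 0.16 to 0.22, with standard errors of 0.12 to 0.20. In 1449296_a_at, ZT9 replicate 1 stood apart at 9.06, with the other 11 mice between 9.56 and 9.96.

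For the surface proteins of the sheath, Mog and Mag, the transcripts had time-point means that lay close together. Mog, an antigen on the outermost face of the sheath, read 9.47, 9.45 and 9.51 at ZT3, 9.30, 9.97 and 9.55 at ZT9, 9.49, 9.54 and 9.66 at ZT15 and 9.65, 9.53 and 9.72 at ZT21. Mag, the adhesion molecule that faces the axon, read 9.74, 9.90 and 9.86 at ZT3, 9.62, 10.18 and 9.91 at ZT9, 9.97, 9.83 and 10.09 at ZT15 and 10.04, 9.96 and 10.13 at ZT21. In both, the lowest and the highest of the 12 mice were ZT9 replicates 1 and 2, and the means of the 4 time points spanned 0.16 (Mog, standard error 0.14) and 0.21 (Mag, standard error 0.13).

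Cldn11 and Mal encode proteins that span the membrane. Cldn11 read 11.03, 10.93 and 11.11 at ZT3, 10.89, 11.39 and 11.13 at ZT9, 11.18, 11.28 and 11.39 at ZT15 and 11.19, 10.94 and 11.27 at ZT21. The mice of ZT15 lay above those of ZT3, by 0.26 (standard error 0.13) on average, and overlapped those of ZT9 and ZT21. Mal 1417275_at read 12.03, 12.08 and 12.05 at ZT3, 12.02, 12.29 and 12.07 at ZT9, 12.16, 12.15 and 12.32 at ZT15 and 11.79, 11.67 and 12.16 at ZT21. Both probe sets of Mal were lowest at ZT21, below ZT9 by 0.25 (standard error 0.13) in 1417275_at and by 0.37 (standard error 0.17) in 1432558_a_at, with groups that overlapped.

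Ugt8a was measured by 2 probe sets. Probe set 1419063_at read 10.05, 10.04 and 10.02 at ZT3, 9.87, 10.41 and 9.81 at ZT9, 10.27, 10.07 and 10.20 at ZT15 and 10.02, 9.97 and 10.51 at ZT21. Probe set 1419064_a_at read 7.87, 8.17 and 8.34 at ZT3, 7.15, 8.01 and 7.80 at ZT9, 8.19, 8.06 and 7.20 at ZT15 and 6.70, 7.44 and 7.43 at ZT21. It had the largest range of the 23, 0.94 (standard error 0.30), between ZT3 and ZT21, and an SD of 0.24 to 0.54 within time points. Between ZT15 and ZT3 the probe sets differed by 0.15 (standard error 0.17) and -0.31 (standard error 0.30), and without ZT15 replicate 3, where the Gapdh gap was wide, the difference of 1419064_a_at was 0.00. Olig1 read 10.21, 10.05 and 9.99 at ZT3, 10.32, 10.12 and 9.87 at ZT9, 10.01, 9.83 and 10.33 at ZT15 and 10.31, 10.12 and 10.49 at ZT21, and its time points overlapped throughout.

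**Figure D2:**
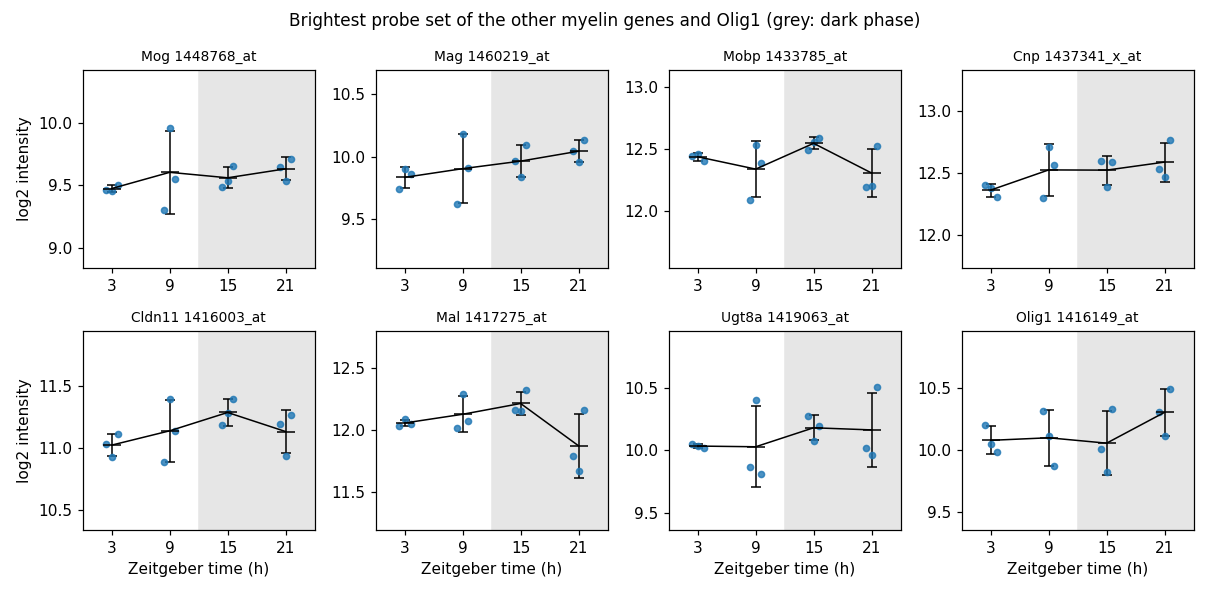
Log2 intensity (vertical axis, the same span in each panel) of the brightest probe set of each of the other 8 genes against zeitgeber time in hours. Points are single mice, bars the mean ± SD of 3 mice and grey the dark phase. At ZT9 the mice of most genes lie further apart than the means of the 4 time points do, for Mog from 9.30 to 9.97.

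Counted together, the members gave few calls in the fit of limma across all tested probe sets. Over the 4 time points, 1 of 23 (Mbp 1425264_s_at) was called at an adjusted p under 0.20, where 1.93% of all tested probe sets were. At an adjusted p under 0.05, the same probe set was the 1 called higher at ZT15 than at ZT3 (0.22% of all) and the 1 called higher in the dark than in the light (0.0937% of all), and 0 of 23 were called between ZT21 and ZT9 (0.00407% of all were higher), with 1 of 23 at an unadjusted p under 0.05. All mice at ZT15 lay above all mice at ZT3 in 10 of 23, where 15.1% of all tested probe sets did so, and below them in 0 of 23 (7.09% of all). They lay above the other 9 mice in 1 of 23 (1.18% of all). All mice at ZT21 lay above all at ZT9 in 1 of 23 (5.24% of all) and below them in 0 of 23 (6.78% of all). As the rule that chose the members used these contrasts, nothing is read from the counts. The call over time points became 5 of 23 without ZT9 replicate 1 and 4 of 23 without ZT21 replicate 3, where the share of all probe sets called was 12.3% and 11.7%. The call between ZT15 and ZT3 was lost without ZT3 replicate 2 or 3, and that between dark and light without ZT3 replicate 2, ZT3 replicate 3 or ZT9 replicate 2.

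The median range of the 23 was 0.24, against 0.27 over all tested probe sets. ZT15 exceeded ZT3 by a median of 0.13, with 21 of 23 above 0, against 0.05 and 60% over all tested probe sets, and ZT21 exceeded ZT9 by a median of 0.03, against -0.02. The small differences depended on the scaling. After quantile normalization the median between ZT15 and ZT3 was -0.03 over the 23 and -0.02 over all tested, with 11 of 23 above 0 and all mice at ZT15 above all at ZT3 in 3 of 23 (10.1% of all). No direction of the family is therefore given.

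**Figure D3:**
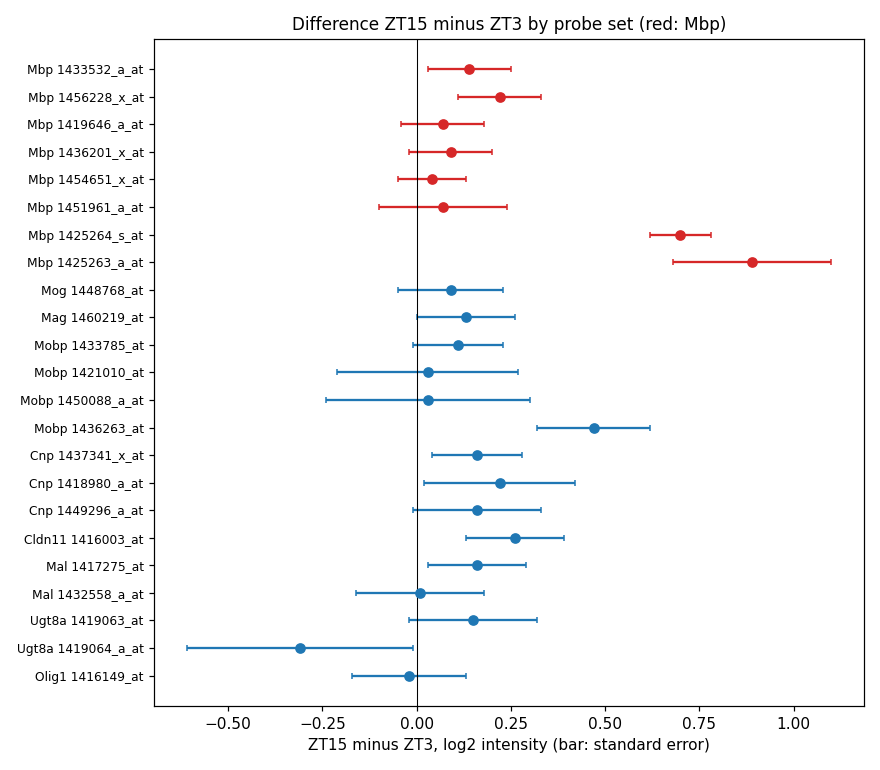
Difference in log2 intensity between ZT15 and ZT3 (horizontal axis, ZT15 minus ZT3) for the 23 tested probe sets, with bars for the standard error of the fit and Mbp in red. Mbp 1425263_a_at and 1425264_s_at lie at 0.89 and 0.70, followed by Mobp 1436263_at at 0.47, and Ugt8a 1419064_a_at lies at -0.31.

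The mice of a time point differed from each other in the same direction across most myelin genes. This was described with the deviation of each mouse from the mean of its time point, in the 20 tested probe sets other than Olig1 and the Mbp probe sets 1425264_s_at and 1425263_a_at, a choice made after the values were seen. In ZT9 replicate 1 all 20 lay below the time-point mean, with a median deviation of -0.27, and in ZT9 replicate 2 all 20 lay above it, with a median of 0.27. In ZT21 replicate 3, 19 of 20 lay above, with a median of 0.17. The 3 mice at ZT3 were alike: the median SD of the 20 was 0.03 at ZT3, 0.30 at ZT9, 0.11 at ZT15 and 0.16 at ZT21, against 0.11, 0.18, 0.14 and 0.15 over all tested probe sets. After quantile normalization the median SD of the 20 was 0.05 at ZT3 and 0.31 at ZT9, and ZT9 replicate 1 was below in 20 and ZT9 replicate 2 above in 19. The deviation of ZT21 replicate 3 was then smaller, with 14 of 20 above and a median of 0.04.

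Between probe sets of different genes, the deviations correlated with a median r of 0.68 over 164 pairs, 159 of them positive, and between probe sets of 1 gene with a median r of 0.69 over 26 pairs. The points of each pair are the 12 mice, which share their array, and with the 3 mice of ZT9 left out the medians were 0.49 and 0.60. Leaving out any single mouse, or rescaling, gave medians of 0.55 to 0.77 over the pairs of different genes. Mag had a median r of 0.71 (rho = 0.70) with the probe sets of other genes and Mog one of 0.70 (rho = 0.58). Mbp 1425264_s_at did not share these deviations, with a median r of -0.37 (rho = -0.26) and 1 of 15 positive. With Olig1 left out of the other genes its median r was -0.39, and it lay between -0.46 and -0.04 when mice were left out or arrays rescaled. The median was -0.16 (rho = -0.06) for Mbp 1425263_a_at, with 5 of 15 positive, and 0.10 (rho = 0.20) for Olig1. With the mice of ZT9 left out, these medians were -0.24 for Mbp 1425264_s_at, 0.27 for Mbp 1425263_a_at and 0.59 for Olig1. The pair of Mbp 1425264_s_at and 1425263_a_at correlated with each other at r = 0.62 (rho = 0.52).

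**Figure D4:**
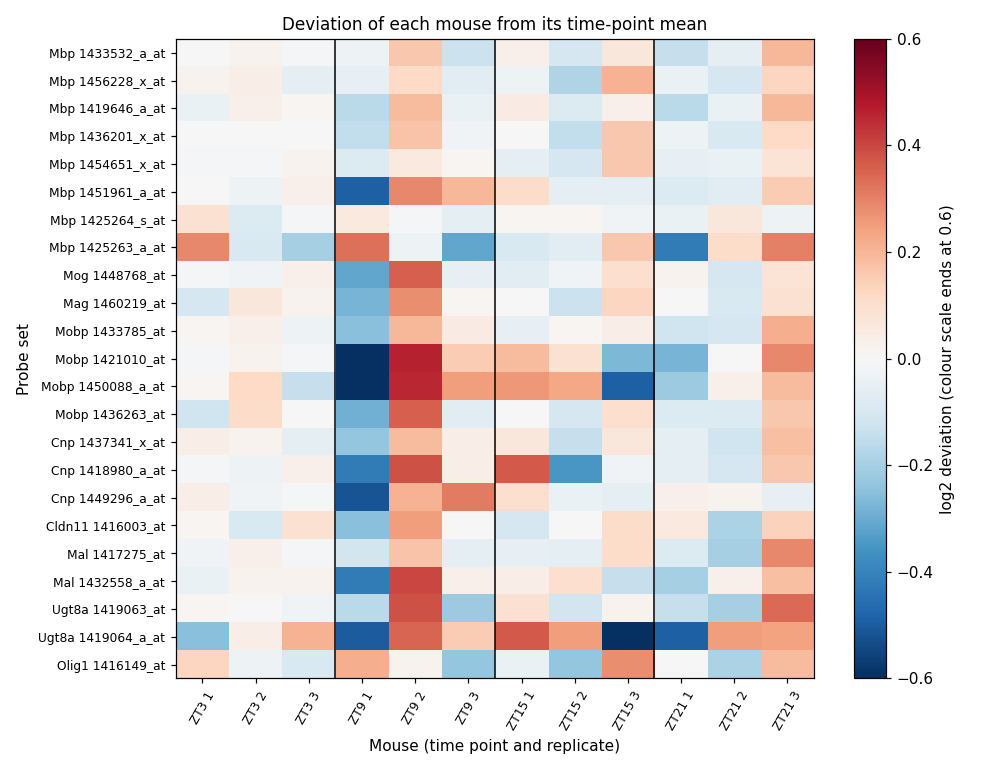
Log2 deviation of each mouse from the mean of its time point (colour, red above and blue below) for the 23 tested probe sets (rows) in the 12 mice (columns, black lines between time points). The columns of ZT9 replicates 1 and 2 are on the blue and the red side in all 20 myelin probe sets, and pale in Mbp 1425264_s_at. Some Mbp rows of the 20 are as pale in replicate 1, such as 1433532_a_at (-0.03, against 0.06 in 1425264_s_at). The columns of ZT3 are pale in most rows.

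RNA quality moved with part of these deviations. In 6 of the 20 probe sets, Mbp 1451961_a_at, Mobp 1421010_at and 1450088_a_at, Cnp 1449296_a_at, Mal 1432558_a_at and Ugt8a 1419064_a_at, the deviation was negatively correlated with that of the Gapdh gap, with r between -0.82 and -0.61 (rho between -0.69 and -0.31, the last in Mbp 1451961_a_at), and in the other 14 r was between -0.31 and 0.49. These 6 were grouped after the values were seen. Mobp 1450088_a_at had r = -0.82 (rho = -0.69), and it was low in ZT9 replicate 1 (9.76) and ZT15 replicate 3 (10.28), where the gap was widest. Olig1 ran the other way, with r = 0.86 (rho = 0.83), and Mbp 1425264_s_at had r = 0.02 (rho = -0.22). ZT21 replicate 3, with a gap of 0.23, was high in 19 of the 20, and ZT9 replicate 2, with a gap of 0.13, was high in all 20. After quantile normalization these counts were 14 and 19. The part of RNA quality in the deviations was not tested. With the gap as a covariate, an alternative added after the values were seen, Mbp 1425264_s_at, Mbp 1425263_a_at and Mobp 1436263_at were called over the time points, where 9.57% of all probe sets were.

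**Figure D5:**
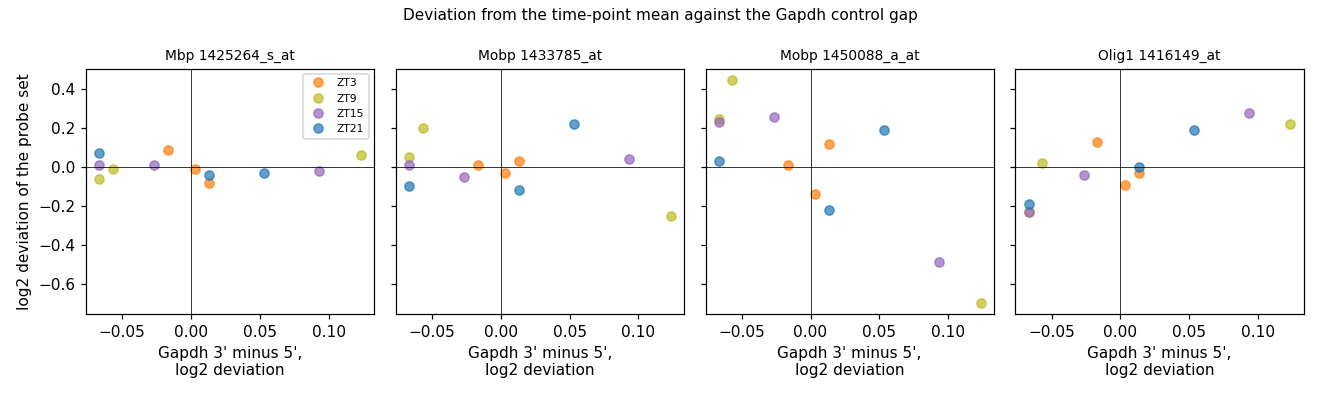
Log2 deviation of a probe set from its time-point mean (vertical axis) against that of the gap between the 3′ and 5′ control probe sets of Gapdh (horizontal axis), 1 point per mouse, coloured by time point. Mobp 1450088_a_at falls with the gap (r = -0.82), Olig1 climbs with it (r = 0.86), and Mbp 1425264_s_at lies near 0 in all 12 mice (r = 0.02).

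Other genes of oligodendrocytes and myelin were taken from a list of 53, of which 48 had a probe set of their own and 45 were tested. Over the 4 time points, 1 of 45 was called (Gjb1), where 1.93% of all probe sets were, and 8 had an unadjusted p under 0.05 (17.8%, against 15.5% of all). By the contrasts of limma, 0 of 45 were called between ZT15 and ZT3 (at an unadjusted p under 0.05, 3 were higher and 2 lower), 0 between ZT21 and ZT9 (6 higher and 1 lower) and 0 between dark and light (5 higher and 3 lower). At the same unadjusted p, 9.85% of all tested probe sets lay higher at ZT15 than at ZT3 and 2.68% lay lower, 4.18% higher and 9.07% lower at ZT21 than at ZT9, and 8.76% higher and 6.58% lower in the dark than in the light. Their median difference between ZT15 and ZT3 was -0.02, against 0.05 over all tested probe sets, with 19 of 45 above 0. Gjb1, the gap junction protein connexin 32 of oligodendrocytes, read 7.25, 7.27 and 7.37 at ZT3, 6.69, 6.86 and 7.26 at ZT9, 7.02, 7.22 and 7.24 at ZT15 and 7.92, 7.67 and 7.45 at ZT21. All mice at ZT21 lay above the other 9, and the mean at ZT21 was above that at ZT9 by 0.74 (standard error 0.15; F-test over time points, adjusted p = 0.188 by limma). That call was lost after centring the arrays, with no filter and with the replicate block. It was also lost when any mouse of ZT3, ZT9 replicate 2, either of ZT15 replicates 1 and 2 or either of ZT21 replicates 1 and 2 was left out.

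The next genes by the F-test did not pass. Opalin, a membrane glycoprotein of central myelin, read 8.13, 8.07 and 7.66 at ZT15, against 8.84, 8.63 and 8.73 at ZT3 (adjusted p = 0.203 from limma over time points). Cryab, a small heat shock protein abundant in oligodendrocytes, averaged 10.65 ± 0.11 at ZT21 and 9.95 ± 0.32 at ZT9 (SD, n = 3 each), with an adjusted p of 0.234 by limma. Dbndd2 averaged 10.33 ± 0.03 at ZT21 and 10.06 ± 0.09 at ZT9 (SD, n = 3 each), with an adjusted p of 0.265 by limma.

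The deviations of single mice reached beyond the members. Of the 45 other oligodendrocyte genes, 35 had a positive median r with the 20 myelin probe sets and 20 had one over 0.5, with a median of 0.47. Over all tested probe sets the median was 0.08, with 57.3% positive and 14.2% over 0.5. The highest were Bcas1 (0.81), Pllp, which encodes the myelin protein plasmolipin (0.78), and Plekhb1 (0.76), and the lowest was Ninj2 (-0.41). By cell type, 10 of 11 genes of cortical neurons were positive (median 0.43), as were 6 of 7 of endothelium (0.41), 8 of 12 of astrocytes (0.25), 2 of 9 of oligodendrocyte precursors (-0.10), 3 of 10 of microglia (-0.17) and 2 of 7 of striatal neurons (-0.22). All of these share the 12 arrays, and no order between the cell types was tested. Ttr was highest in ZT9 replicate 3 and ZT15 replicate 1, where the median deviation of the 20 myelin probe sets was 0.01 and 0.03.

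Among precursor genes, 1 of 9 was called over the time points, where 1.93% of all probe sets were. At an unadjusted p under 0.05 by the F-test there were 5 of 9, against 15.5% of all. The called gene, Gpr17, a receptor of cells that are about to form myelin, averaged 7.07 ± 0.20 at ZT3, 7.58 ± 0.39 at ZT9, 7.75 ± 0.22 at ZT15 and 7.93 ± 0.09 at ZT21 (SD, n = 3 each), with an adjusted p of 0.194 by limma. Pdgfra, the growth factor receptor that marks precursors, stood at 8.84 ± 0.05, 9.31 ± 0.32, 8.74 ± 0.20 and 8.84 ± 0.21 at the same times and did not pass (adjusted p = 0.273 from limma). Of 15 genes that make or break down ceramide, galactolipid and sulfatide, the pathway of Ugt8a, 1 was called, against the same 1.93%. At an unadjusted p under 0.05 by the F-test there were 5 of 15, against 15.5% of all. The called gene was Kdsr, an early enzyme of ceramide synthesis, which averaged 6.83 ± 0.42 at ZT21 and 7.64 ± 0.05 at ZT9 (SD, n = 3 each), with an adjusted p over time points of 0.188 by limma. Whether the calls of Gpr17 and Kdsr held under the alternatives was not examined.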

How the data were processed

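RNA of the prefrontal cortex of 12 mice was hybridised to Affymetrix Mouse430_v2 arrays, 1 mouse per array. The authors deposited linear intensities from GCRMA and took detection calls from MAS5. Genes were assigned from GEO's annotation of the array. Values were log2-transformed above a floor of 1, which no value lay under. The brightest 54.5% of probe sets, as many as the authors kept by detection calls, were fitted by lmFit and eBayes of limma 3.58.1 (R 4.3.3; no covariate), with Benjamini-Hochberg adjustment over all of them. Calls used the F-test at 0.20 and two-sided contrasts at 0.05. The script was tested on simulated data. Figures were made with Python 3.11.15 and matplotlib 3.10.9. Promoters were RefSeq's, GRCm38.p6, with both strands searched. The members and gene lists were chosen with earlier results of these data known. Each listed gene was represented by its brightest probe set, and up to 4 per list with the smallest F-test p were open to naming; genes named by their correlations were chosen after the values were seen. For likeness, the 5 genes with the highest r were named, among genes that are not members. Precision is limited by 3 mice per time point. Alternatives were other scalings, filters, variance priors, array weights, a replicate block and each array left out.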

Additional observations from a re-analysis of the deposited data

How the results depend on the processing

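Of 721 values recomputed under the alternatives, 671 stayed alike. For counts of calls this meant the same or nearly the same size. For differences and ranges it meant a shift within the spread among mice, and for median correlations a small shift. Of the rest, 16 counts were weaker, 27 counts were stronger, and 7 differences or correlations had moved further. No called value changed sign, but 22 differences between ZT15 and ZT3 that were not called did, 10 of them after quantile normalization, in 11 probe sets whose difference was at most 0.14 in size. Mbp 1425264_s_at was called over the time points under every alternative run. As the members were chosen by their values on these same arrays, this is a description and adds no support. The F-test called 2 of the 23 member probe sets after quantile normalization (8.73% of all probe sets), 3 among the 15000 brightest (8.87%) and 16 with array weights (60%), against 1 of 23 (1.93%). With ZT9 replicate 1 and ZT15 replicate 3 both left out it called 7 (19.2%) and with the Gapdh gap as a covariate 3 (9.57%), both chosen after seeing the data. Leaving out single mice gave 1 to 5 members, 5 without ZT9 replicate 1, 4 without ZT21 replicate 3, 2 without ZT9 replicate 3 or ZT15 replicate 3 and 1 otherwise. Between ZT15 and ZT3, array weights called 2 members and leaving out single mice 0 to 1. Between ZT21 and ZT9, array weights called 5 and leaving out both arrays 1. Between dark and light, array weights called 3 and leaving out single mice 0 to 1. Of the 45 other oligodendrocyte genes, the F-test called 1, against 5 after quantile normalization, 0 after centring arrays, 0 with no filter, 3 among the 15000 brightest, 31 with array weights, 7 without both arrays and 4 with the covariate. Leaving out single mice gave 0 to 6, with 6 without ZT9 replicate 1 and 6 without ZT21 replicate 3. Array weights called 3 of them between ZT15 and ZT3, 8 between ZT21 and ZT9 and 7 between dark and light. Between ZT21 and ZT9, leaving out single mice called 0 to 1, 1 of them without ZT21 replicate 3, and leaving out both arrays called 1. The cause of these shifts was not tested. Same-numbered mice had correlated deviations (r over 0.1) in 6 of 18 pairs, with r from -0.50 to 0.49, so the numbers were not taken to pair the mice. With the replicate block the F-test called 1 member (0.371% of all) and 0 other oligodendrocyte genes, and the contrasts called 1 member between ZT15 and ZT3, 0 between ZT21 and ZT9 and 0 between dark and light. Signal over background limits what can be said of Mobp 1441308_at.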
